A study of Drosophila melanogaster with 3 samples.

Results

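This report describes the microRNA (miRNA) genes of Drosophila melanogaster and the places near them that carried the chromatin protein Lpt in whole white prepupae. The 260 loci are all genes of the 6 arms 2L, 2R, 3L, 3R, 4 and X in the Ensembl release 115 annotation whose name starts with mir-, a rule that takes in bantam (mir-ban) and let-7 (mir-let7), out of 18164 annotated gene entries. Each locus is the stretch of a precursor hairpin, with a median length of 92.0 bp and a range of 50 to 174 bp. Loci under 2000 bp apart were joined, which gave 206 clusters, 26 of them with 2 or more loci and the largest with 8. Inside protein-coding genes lay 166 loci, 122 in introns and 44 in exons, and 94 lay outside them.

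All 3 samples belonged to 1 group: biological replicates of 1 technical replicate each, males and females together, from a transgenic line that stably expresses Lpt with GFP at its C terminus. Chromatin of whole animals was sheared to 200 to 800 bp and precipitated with an antibody against GFP. The replicates share 1 line, the labels do not say what remains of untagged Lpt, and a summit in whole animals gives no tissue. Enrichment without the tag was not analysed here. Peak positions are those of the 6110 peaks that passed an irreproducible discovery rate (IDR) threshold. Such a threshold is meant to keep peaks ranked alike in the replicates. Of the 6110, 63.5% overlapped a peak among the strongest 6110 of all 3 replicate lists, and 0.573% did so in no list. Each peak is given by its summit, and its signal is the authors' enrichment value, used only to rank and describe peaks. Per replicate, the signal and rank are those of the strongest overlapping region in that replicate's own list, and the lists differ in scale, with median signals of 18.5, 25.0 and 16.7 in replicates 1, 2 and 3. How many reads stand behind each list is unknown.

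A miRNA is cut from a hairpin in a longer primary transcript, which can be a noncoding RNA of its own or the intron of a host gene, so the promoter that serves it can lie far from the hairpin. The mature strand pairs with messenger RNAs through its seed, and loci with the same seed can act on the same targets. Lpt belongs to the COMPASS-like complex of the methyltransferase Trr, which marks enhancers on histone H3 and is a coactivator of the ecdysone receptor. White prepupae follow the ecdysone pulse that ends larval life, and let-7, miR-100 and miR-125 are known as miRNAs that appear with this transition.

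The mature sequences below are those of the loci on which the results turn. They are shown 5′ to 3′ from the RefSeq annotation and sequence of genome release 6, with the seed, bases 2 to 8, in capitals, and of the 2 arms of a hairpin the one first registered is given. The first 3 come from the let-7 complex, the next is bantam, and the following 3 lines hold mir-282 and, before it, a pair with the seed GACUAGA, which mir-286 of the mir-309 cluster, with no summit within 5000 bp, also has.
mir-let7: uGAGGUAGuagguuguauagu
mir-100: aACCCGUAaauccgaacuugug
mir-125: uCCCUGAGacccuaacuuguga
mir-ban: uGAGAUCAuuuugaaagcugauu
mir-279: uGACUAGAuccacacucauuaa
mir-996: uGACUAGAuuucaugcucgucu
mir-282: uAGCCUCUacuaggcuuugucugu

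The next lines show families that were split or not split by the summits. The miR-9 family shares the seed CUUUGGU, the miR-92 pair shares AUUGCAC, and miR-2a, miR-2b, miR-11 and miR-13a share AUCACAG.
mir-9a: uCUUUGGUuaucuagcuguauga
mir-9b: uCUUUGGUgauuuuagcuguaug
mir-9c: uCUUUGGUauucuagcuguaga
mir-92a: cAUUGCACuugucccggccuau
mir-92b: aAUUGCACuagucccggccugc
mir-2a-2: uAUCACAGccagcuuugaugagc
mir-2b-2: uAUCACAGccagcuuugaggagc
mir-11: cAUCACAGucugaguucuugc
mir-13a: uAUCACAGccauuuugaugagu

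An IDR summit lay within 5000 bp of 81 of the 260 loci, or 31.2% (exact 95% binomial interval 25.6 to 37.2%), and of 68 of the 206 clusters, or 33.0% (26.6 to 39.9%). By the same distance, 26.9% of the bases of the 6 arms and 44.6% of 269 snoRNA genes, counted singly, had a summit. Of protein-coding genes, 45.3% had one measured from the whole gene and 39.2% measured from any transcription start site. The share of miRNA loci was thus close to that of the bases of the arms and below those of coding and snoRNA genes. The interval of the clusters takes in the start-site share of coding genes. Coding genes have a median length of 2166 bp, and the part of length in the whole-gene share was not tested. Among the 6110 strongest peaks of replicates 1, 2 and 3 taken alone, 80, 78 and 76 loci had a summit within 5000 bp (78.0 ± 2.00, SD, n = 3), as did 66, 65 and 61 clusters (64.0 ± 2.65). Intervals cover counting error only, and loci of 1 cluster share their summits.

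The surroundings of the locus set what it can be compared with. Of the 94 loci outside coding genes, 27 (28.7%, 19.9 to 39.0%) had a summit within 5000 bp, against 17.7% of the bases outside coding genes; as clusters these were 17 of 62 (27.4%, 16.9 to 40.2%), whose interval takes in the background share. Of the 122 intronic loci, 40 (32.8%, 24.6 to 41.9%) had a summit, against 30.9% of intron bases of coding genes. Exonic loci had one in 14 of 44 cases (31.8%). On the arms, clusters of 2L had a summit most often, 20 of 41 (48.8%, 32.9 to 64.9%), against 27.5% of the bases of 2L. 2R, 3L, 3R and X ranged from 25.0 to 32.0%, against 25.5 to 28.1% of their bases, and neither of the 2 clusters on chromosome 4 had a summit, which allows a share of up to 84.2%.

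**Figure D1:**
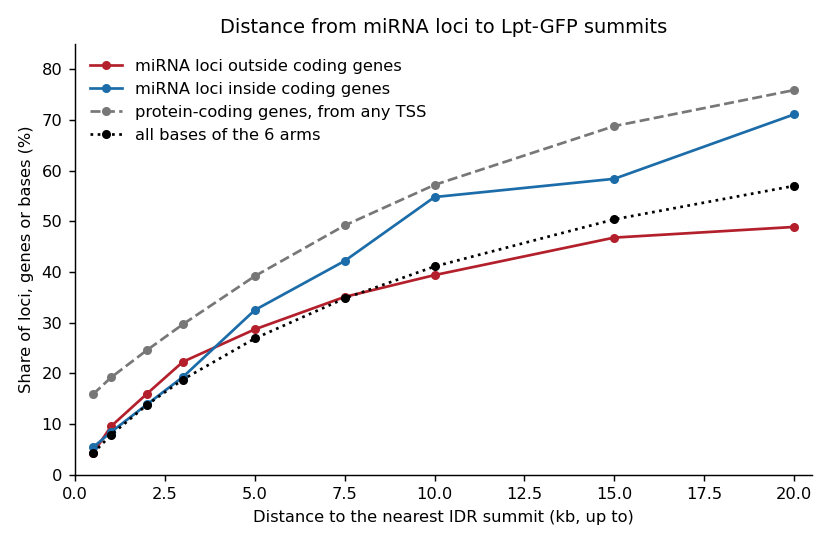
Share of miRNA loci (y axis, %) with an IDR summit within the distance on the x axis (kb), for the 94 loci outside coding genes and the 166 inside them, beside protein-coding genes measured from any transcription start site and all bases of the 6 arms. Points are the distances computed. At 1000 bp, 9.57% of the loci outside and 8.43% of those inside coding genes had a summit, against 19.2% of coding genes at a start site and 7.87% of all bases.

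The hairpin itself is seldom where its transcript begins, so the starts of the noncoding genes that contain hairpins on the same strand were examined separately. There were 37 such genes, holding 51 loci. A summit within 1000 bp of an annotated transcription start site, called a promoter summit here, was found at 13 of them (35.1%, 20.2 to 52.5%), against 15.5% of the 2520 noncoding RNA genes other than miRNAs, a set that includes the 37. The 37 were longer, with a median of 6436 bp against 706 bp, and 14 of them had more than 1 start site. The part of length and start site number in the difference was not tested. Positions below are given from the start site or the hairpin on the strand of the transcript, with negative values upstream.

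The strongest of these sites belonged to mir-279 and mir-996, which in the fly shape the sensory neurons that detect carbon dioxide. Their cluster lies at chr3R:29215585-29217280 in the noncoding gene CR31044 (chr3R:29214562-29219667), and a summit stood at -110 bp from the start of that gene. Its IDR signal of 1155 ranked 30 of 6110. The overlapping peak had signals of 353, 472 and 337 in replicates 1, 2 and 3 (388 ± 73.8), with ranks of 27, 26 and 35. All 3 replicates therefore placed it among their highest peaks. Another 4 summits lay within 5000 bp of the cluster, with signals of 148 to 234.

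The let-7 complex shows how far the main site can lie from the hairpins. mir-100, mir-let7 and mir-125 lie together at chr2L:18471434-18472424, near the 3′ end of the 17416 bp noncoding gene let7C (chr2L:18455717-18473132). Within 5000 bp of the hairpins were 2 summits, the stronger at -2672 bp with signals of 82.5, 142 and 49.0 in replicates 1, 2 and 3 (91.0 ± 46.8) and rank 1417. The strongest summit of the gene stood 551 bp inside its start, outside that window. It had an IDR signal of 899, rank 61, and signals of 298, 361 and 244 in the replicates (301 ± 58.8), at ranks 49, 62 and 85. The promoter peak thus exceeded the peak nearest the hairpins in every replicate. In all, 9 summits lay inside let7C, of which 1 overlapped no peak of replicate 3 and another was among the strongest 6110 of no replicate.

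Bantam, which promotes growth and blocks cell death by repressing hid, had sites on both sides of its hairpin (chr3L:642208-642288). Its noncoding gene CR43334, 15466 bp long, held 7 summits. The strongest summit within 5000 bp stood at 2047 bp from the hairpin, downstream of it and just past the end of the gene, with signals of 148, 219 and 146 in replicates 1, 2 and 3 (171 ± 41.8) and rank 324. A stronger one inside the gene, 8190 bp from its start, had signals of 163, 276 and 176 and rank 200. CR43334 has 3 annotated start sites. The one at its 5′ end had a summit at -261 bp with signals of 99.0, 188 and 61.8 and rank 867. The sites of ranks 324 and 200 were therefore higher than the one at the 5′ end in all 3 replicates. Another summit stood at -1487 bp from the hairpin, with signals of 130, 179 and 119 and rank 509. It lay 1007 bp inside another start site of CR43334, just past the limit for a promoter summit.

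mir-282 (chr3L:3251022-3251118) had 7 summits within 5000 bp, all upstream, and 4 of these were promoter summits of its noncoding gene CR43626. The strongest, at -507 bp from a start site, had signals of 145, 219 and 145 in replicates 1, 2 and 3 (169 ± 42.5) and rank 341. It also lay 818 bp inside a start of the coding gene CG43389. Another of the 7, of rank 1166, stood at -298 bp from a start of CG43389. Which of the 2 genes these sites serve was not measured. Some neighbouring IDR summits here overlap the same replicate peak, so 7 summits do not mean 7 separate peaks in a replicate.

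mir-9a, which limits the number of sensory bristles by repressing sens, had its strongest summit at -4318 bp from the hairpin (chr3L:19565131-19565208), with signals of 205, 296 and 179 in replicates 1, 2 and 3 (227 ± 61.6) and rank 142. That summit stood 377 bp inside the neighbouring noncoding gene CR44676. The noncoding gene that contains mir-9a, CR45916, had a weaker one at -705 bp from its start, with signals of 55.5, 103 and 94.0 and rank 1608. Which of these serves mir-9a was not measured.

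Smaller promoter summits stood at the noncoding genes of several other known miRNAs. That of mir-8, which acts on body growth through ush, had one at -97 bp from a start site with signals of 70.0, 117 and 43.4 in replicates 1, 2 and 3 and rank 1732. mir-14, which regulates the ecdysone receptor gene EcR, had one at -170 bp with signals of 46.3, 74.3 and 20.9 and rank 4133. mir-275 had one at -286 bp with rank 1652, mir-276a one at -576 bp with rank 2575, mir-bft one at -75 bp with rank 5068 and mir-375 one at -584 bp with rank 5258. These promoter summits lay lower in the list than the sites of mir-279, let7C and mir-282, and for mir-8 and mir-14 replicate 3 gave the lowest signal. Some of these genes held stronger summits elsewhere. That of mir-8 had one 9415 bp from its 5′ end with rank 645. That of mir-276a had one at 28790 bp with rank 1032, and that of mir-bft one at 2246 bp with rank 3363. The remaining members of the 13 were Hsromega, which holds mir-4951, at rank 800, and CR45917, which holds mir-92b and whose summit stood 999 bp from its start, just inside the limit but past the 3′ end of that 986 bp gene.

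**Figure D2:**
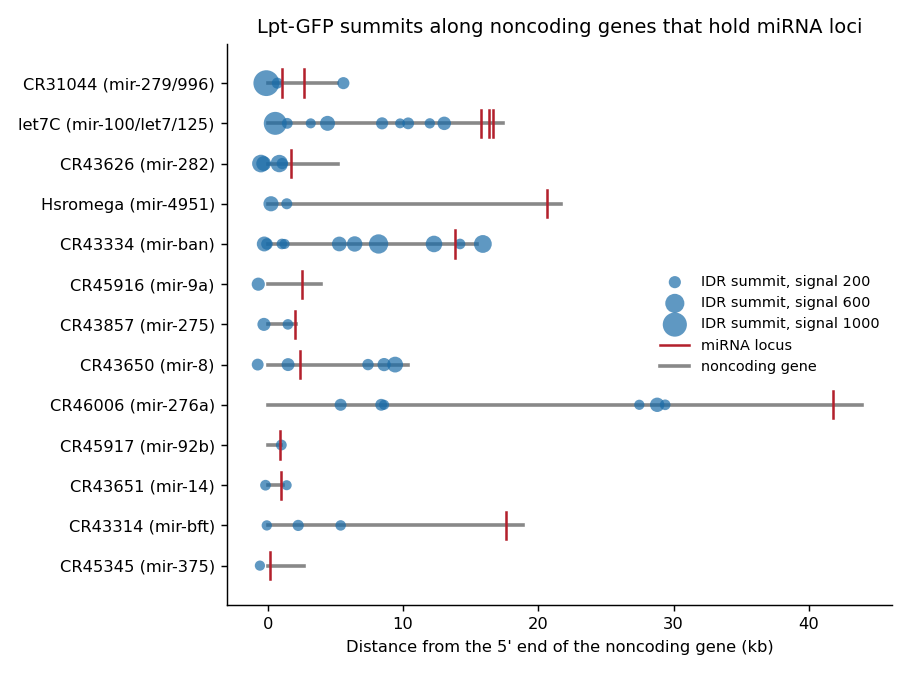
The 13 noncoding genes with a promoter summit, drawn from the 5′ end (x axis, kb) and ordered by the IDR rank of that summit. Circles are IDR summits inside the gene or within 1000 bp of it, with area growing with signal, red ticks are miRNA loci and grey lines the genes. The largest circles, of CR31044 and let7C, sit at the start of the gene, whereas those of CR43334 lie along it.

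The 151 bp around 4 of these summits are given on the plus strand, because they hold the 3 strongest promoter summits among the 13 genes and the strongest summit within 5000 bp of bantam. None of them held any of the 5 motifs that are spelled out below, so no base is in capitals. They run, in order, over chr3R:29214377-29214527 (GC content 42.4%), chr2L:18456193-18456343 (49.0%), chr3L:3248758-3248908 (33.1%) and chr3L:644260-644410 (36.4%). The window named for CR43626 also lies near a start of the coding gene CG43389.
CR31044 promoter, mir-279 and mir-996: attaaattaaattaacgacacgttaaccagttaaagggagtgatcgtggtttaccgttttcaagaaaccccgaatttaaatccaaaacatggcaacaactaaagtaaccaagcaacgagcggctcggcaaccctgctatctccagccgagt
let7C promoter: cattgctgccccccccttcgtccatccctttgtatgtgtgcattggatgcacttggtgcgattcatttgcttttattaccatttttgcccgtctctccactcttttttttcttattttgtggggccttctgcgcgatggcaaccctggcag
CR43626 promoter, mir-282: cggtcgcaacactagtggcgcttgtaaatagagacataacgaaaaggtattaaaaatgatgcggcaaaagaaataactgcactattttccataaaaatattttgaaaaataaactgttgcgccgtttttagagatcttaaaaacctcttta
mir-ban, downstream summit: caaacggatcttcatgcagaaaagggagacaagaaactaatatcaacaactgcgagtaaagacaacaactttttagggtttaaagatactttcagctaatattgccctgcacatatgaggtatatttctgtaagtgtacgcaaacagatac

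The other 24 of the 37 noncoding genes had no promoter summit. They include those of mir-1, a muscle miRNA, mir-124, a neuronal one, mir-10, which lies in the Antennapedia complex of Hox genes, mir-34 with mir-277, mir-184, the embryonic cluster of mir-309, and mir-iab-4 with mir-iab-8, which lie on opposite strands in the bithorax complex and repress Ubx. No IDR summit lay within 5000 bp of these hairpins either. The nearest stood 8495 bp from mir-1, 8869 bp from mir-184, 11557 bp from mir-34, 29503 bp from mir-309, 57418 bp from mir-iab-4 and mir-iab-8, 82011 bp from mir-124 and 103015 bp from mir-10. mir-278, an energy balance miRNA inside CG42524, had its nearest at 7648 bp. Over all 260 loci the median distance to the nearest summit was 10848 bp, so mir-1, mir-184 and mir-278 were closer than the median locus. The noncoding gene of mir-184 held 1 summit, away from its start sites, and mir-10 had a summit within 5000 bp among the strongest 6110 peaks of replicate 1 alone.

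**Figure D3:**
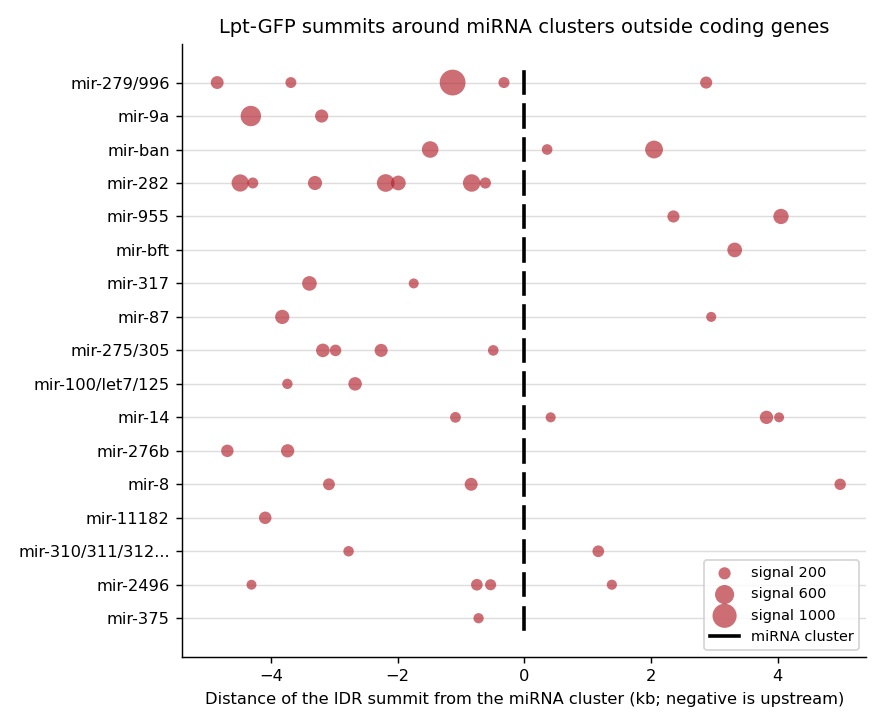
IDR summits within 5000 bp of the 17 miRNA clusters outside coding genes that had any. The x axis is the distance from the cluster (kb, negative upstream), circle area grows with the IDR signal, and black bars mark the cluster. Of the 47 cluster-summit pairs, 34 lie on the upstream side and 13 on the downstream side.

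Loci inside coding genes were near summits mostly where the promoter of the host had one. The 166 loci had 146 host genes, 54 of which (37.0%, 29.2 to 45.4%) had a promoter summit, against 19.2% of all protein-coding genes. Hosts were longer, with a median of 14094 bp against 2166 bp, and had more start sites, with a median of 2.00 against 1.00. The part of these in the difference was not tested. Among loci in hosts with a promoter summit, 36 of 60 (60.0%) had a summit within 5000 bp, against 18 of 106 (17.0%) in hosts without one. In 27 of the 54 hosted loci with a nearby summit, such a summit was itself within 1000 bp of a host start site, so the same peaks enter both counts.

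The count differed by strand, with wide intervals. Of the 136 loci on the strand of their host, 50 (36.8%, 28.7 to 45.5%) had a summit within 5000 bp, against 4 of 30 (13.3%, 3.76 to 30.7%) on the opposite strand, and these intervals overlap. The 4 were mir-4978, mir-9380, mir-980 and mir-4957, named here after their values were seen. Loci were not joined into clusters for this split, so the intervals treat neighbours as separate. The 30 include the 6 loci from mir-959 to mir-964, which form a single cluster without a summit. Loci that fill an annotated intron within 5 bp at each end, which is the arrangement of mirtrons spliced out of their host, had a summit in 11 of 34 cases (32.4%), against 31.0% of the other loci.

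Among hosted clusters, those of mir-2a-2, mir-2a-1 and mir-2b-2 (chr2L:19569490-19570264) lie inside spi, the gene of an EGF receptor ligand. The miR-2 family represses genes that trigger cell death. Their strongest summit stood at -330 bp from a spi start site, with signals of 141, 195 and 148 in replicates 1, 2 and 3 (161 ± 29.2) and rank 357. mir-33 (chr3L:19797961-19798059) lies inside SREBP, whose product controls lipid synthesis, and had a summit 548 bp inside the host with a mean signal of 111 ± 24.8 (SD, n = 3) and rank 912. In both cases the main site was at the promoter of the host gene. mir-11 and mir-998 lie inside the cell cycle gene E2f1, yet their strongest summit, with signals of 69.4, 109 and 22.3 and rank 2514, stood 586 bp from a start site of the insulin receptor gene InR. mir-7, inside HnRNP-K, had 1 summit, at -4856 bp, with signals of 42.0, 58.8 and 18.7 and rank 5064.

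The remaining clusters with the strongest sites carried miRNAs with little known function, and most of their peaks were at starts of coding genes. mir-4943 in CG5953 had signals of 211, 276 and 175 in replicates 1, 2 and 3 at -399 bp from a start of its host, with rank 150. mir-1004 had 157, 272 and 170 at -189 bp from a start of bowl, which encodes a zinc finger protein and is not its host, with rank 217. mir-1006, in the proton pump gene VhaSFD, had 133, 221 and 120 at the cytochrome c gene Cyt-c-p, with rank 385. These 3 sites were highest in replicate 2, the list with the highest median signal. Ranks from 419 to 819 belonged to mir-9382 in the transporter gene MRP, mir-4972 in the kinase gene for, mir-9377 in Tis11, mir-955 outside coding genes and mir-9383 in CG12241. Of those 5, mir-9377 was the exception in place, with its summit in an intron, 5071 bp from the nearest start of Tis11.

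**Figure D4:**
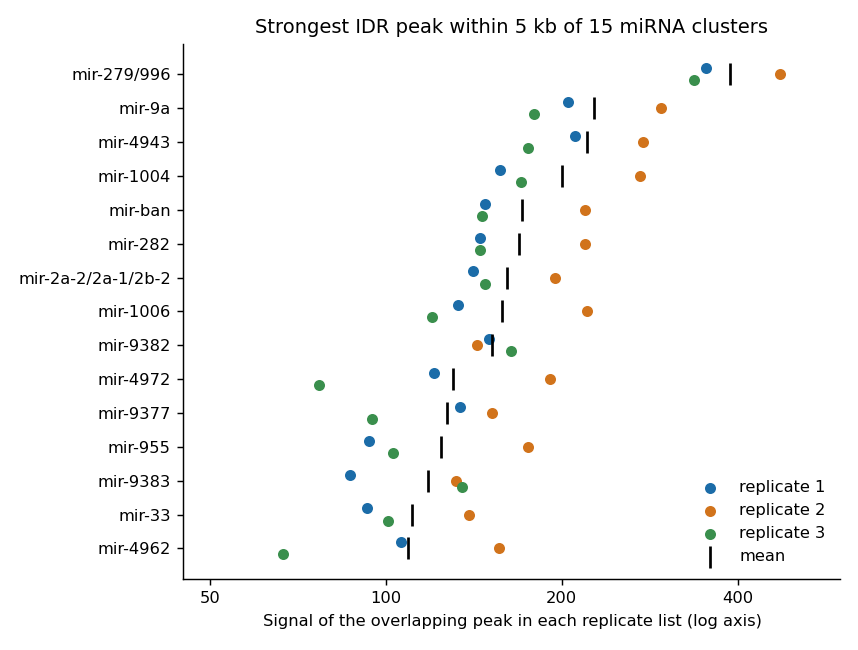
Signal of the strongest IDR peak within 5000 bp of the 15 highest miRNA clusters, as the overlapping peak of each replicate list (x axis, log scale; dots, replicates 1 to 3; bar, mean). The values fall from 353, 472 and 337 at mir-279 with mir-996 to 106, 156 and 66.7 at mir-4962, and replicate 2 is the highest at all clusters but mir-9382 and mir-9383.

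An IDR peak overlapped the hairpin itself at 4 of 260 loci (1.54%, 0.421 to 3.89%), against 2.16% of all stretches of 92 bp, the median hairpin length, on the 6 arms, so hairpins were near the background. mir-4962 lies in an intron of Tlk, the Tousled-like kinase gene, at chrX:3777382-3777505, had 7 summits within 5000 bp, and one of them fell within the hairpin. Peaks over that hairpin ranked 1560, 1787 and 5537 in the lists of replicates 1, 2 and 3. It was the only hairpin overlapped by a peak among the strongest 6110 of all 3 replicates. The hairpin is printed because the GA repeat GAGAGAG, in capitals here on either strand, lies within it.
mir-4962: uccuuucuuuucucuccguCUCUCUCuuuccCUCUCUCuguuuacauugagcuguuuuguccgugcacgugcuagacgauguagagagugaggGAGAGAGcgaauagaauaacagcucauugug

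The other 3 overlapped hairpins were weaker or less even. mir-92b in jigr1 (chr3R:25651398-25651497) had 54.2, 66.1 and 20.9 in replicates 1, 2 and 3. mir-4985 in the fatty acid transport gene Fatp3 had 48.3, 63.7 and 11.9. mir-4978, in an intron of the Notch coactivator gene mam and on its opposite strand, had 25.5, 61.6 and 25.5. None of the 3 was among the strongest 6110 in every replicate, although mir-4978 had 5 summits within 5000 bp. Beyond the IDR list, hairpins were overlapped by a listed region of any strength, background regions included, in 9 loci in all 3 replicates, 8 in 2, 28 in 1 and 215 in none. As shares these were 3.46, 3.08, 10.8 and 82.7% of loci, against 4.06, 4.28, 8.99 and 82.7% of all stretches of 92 bp on the 6 arms.

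The number of summits per cluster was mostly small. Of the 68 clusters with any, 34 had 1, 15 had 2, 10 had 3, 5 had 4, 2 had 5 and 2 had 7. The clusters with 7 were mir-282 and mir-4962, and those with 5 were mir-279 with mir-996 and mir-4978. Just inside the 5000 bp limit were mir-2501, mir-4944 and mir-1014, at 4882, 4922 and 4999 bp, and just outside were mir-3642, mir-9376 and mir-4983, at 5135, 5144 and 5211 bp.

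Of the 179 loci without an IDR summit within 5000 bp, 163 also lacked one among the strongest 6110 peaks of every replicate. A summit was found in 1 replicate at 12 loci, in 2 replicates at 4 and in 3 replicates at none, which allows up to 2.04%. The 4 were mir-281-1, mir-281-2, mir-276a and mir-9372. For mir-276a, linked to memory and circadian rhythm, the nearest IDR summit was 11537 bp away, although 6 summits lay inside its 43950 bp noncoding gene CR46006.

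Near the miRNA loci there were 135 distinct summits. Their median signal was 188, against 170 for all IDR peaks, and 82 of them (60.7%) were among the strongest 6110 of all 3 replicates, against 63.5% of all IDR peaks. They were thus ordinary in strength and reproducibility. Promoter summits made up 57.0% (48.2 to 65.5%), against 47.1% of all, intronic ones 28.1% against 39.2%, and intergenic ones 7.41% against 12.2%. Exonic summits made up 7.41% (3.61 to 13.2%), or 10 summits, against 1.55% of all; 8 of these 10 fell only in exons of noncoding genes, against 33 of the 95 in the whole list. Of the 8, 2 each were in CR43334 of mir-ban and CR46004 of mir-276b, and 1 each in CR43650 of mir-8, CR43857 of mir-275 and CR45054 beside mir-317. The last was the summit within the mir-4962 hairpin. That hairpin lies in an intron of Tlk, and the exon counted belongs to an overlapping noncoding entry named only by an identifier.

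Of 5 motifs searched on both strands within 100 bp of each summit, GAGAGAG, bound by GAGA factor, was in 17 of the 135 windows (12.6%, 7.51 to 19.4%), against 8.23% of all 6110. TATCGATA, the site of DREF, was in 2.96% against 1.10%, and AGGTCA, the core site of nuclear receptors, in 2.22% against 3.67%. CAGGTAG, the site of Zelda, was in 0.741% against 0.802%, and TGANTCA, the site of AP-1 factors, in 3.70% against 4.55%. At this width all 5 intervals take in the share of the whole list. Within 50 bp of the summit, GAGAGAG was in 8.15% (4.14 to 14.1%) against 4.01% and TATCGATA in 2.96% (0.813 to 7.41%) against 0.344%, and these 2 intervals do not take in the whole-list share. TATCGATA rests on 4 windows. Within 200 bp, the intervals of GAGAGAG (16.8 to 31.8%) and TATCGATA (0.813 to 7.41%) take in the whole-list shares of 16.9 and 2.21%. All these intervals treat windows as independent, although some neighbouring summits overlap the same replicate peak. A long GAGAGAG run, CTCTCTC on the printed strand, lay near the summit beside mir-9373 in CG6231 (chr3R:19623736-19623886), shown with the motif in capitals as an example chosen after its values were seen.
mir-9373, summit window: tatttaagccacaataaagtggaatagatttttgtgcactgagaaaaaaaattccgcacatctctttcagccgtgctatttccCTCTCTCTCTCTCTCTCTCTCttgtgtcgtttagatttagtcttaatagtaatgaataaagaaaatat

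Grouped by seed, the 260 loci had 224 seeds, of which 16 were shared by 2 or more loci. Loci with a shared seed had a summit within 5000 bp in 20 of 52 cases (38.5%), against 61 of 208 (29.3%) with a seed of their own. This split depends on the arm taken for each hairpin: the paralogues mir-276a and mir-276b, first registered from opposite arms, count here as having seeds of their own, as do mir-281-1 and mir-281-2. All 6 loci with the seed AUUGCAC did, mir-310, mir-311, mir-312, mir-313, mir-92a and mir-92b, but they stand for only 3 clusters, and mir-92a and mir-92b share their 3 summits. The strongest summit of the mir-310 cluster had signals of 70.7, 62.8 and 66.2 in replicates 1, 2 and 3, and that of the mir-92 pair 56.4, 99.0 and 55.5. Of the 13 loci with AUCACAG, 4 had a summit, the 3 in spi and mir-11, while mir-13a in its own noncoding gene did not. In the miR-9 family, mir-9a had 2 summits, whereas mir-9b and mir-9c, in another cluster, had none.

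The genes that make and use small RNAs were examined beside the loci. Of 23 listed, 15 (65.2%, 42.7 to 83.6%) had a summit within 5000 bp of the gene, against 45.3% of coding genes. Within 5000 bp of a start site 13 (56.5%, 34.5 to 76.8%) had one, against 39.2%. Within 1000 bp of a start site it was 10 (43.5%, 23.2 to 65.5%), against 19.2%. Both intervals at 5000 bp take in the shares of coding genes, and the one at 1000 bp does not. AGO2, the Argonaute of the siRNA pathway, had a summit 322 bp inside its start with signals of 110, 169 and 74.2 in replicates 1, 2 and 3 and rank 778. Hsp83, a chaperone that loads Argonautes, had its strongest at 183, 254 and 146 with rank 236. The miRNA Argonaute AGO1 also had a promoter summit among its 4 summits, but the strongest, with 49.7, 69.7 and 25.5, stood 90 bp from a start of its neighbour shot. The strongest site near AGO2 was the higher of the 2 in each replicate.

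Some of the peaks counted for this pathway lie at neighbours. pasha, the partner of drosha, was within 5000 bp of a peak with signals of 295, 299 and 345 and rank 52, but its summit stood at -6 bp from a start of Mnat9, and pasha had no promoter summit of its own. The nearest summits of loqs, Nbr and Ars2 likewise stood at starts of other genes. r2d2 and twin had a promoter summit, as AGO1 did. Their strongest summits, however, had as nearest coding starts those of Herp, at 89 bp, and SMC6, at -197 bp. No summit lay within 5000 bp of drosha or Dcr-1, whose products cut the precursors in the nucleus and the cytoplasm, or of Cbp80, Dcr-2, Hen1, Ge-1, me31B and Hsc70-4.

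Of 14 well studied miRNA targets, 11 (78.6%, 49.2 to 95.3%) had a summit within 5000 bp of the gene, against 45.3% of coding genes. Within 5000 bp of a start site 9 (64.3%, 35.1 to 87.2%) had one, against 39.2%, and 4 (28.6%, 8.39 to 58.1%) had a promoter summit, against 19.2%. Both start-site intervals take in the shares of coding genes. The part of gene length in the whole-gene share of these targets was not tested. Of the 81 summits within 5000 bp of these genes, 70 lay inside them, in 8 genes, and the other 3 genes had summits outside only. The summit counted for Ubx stood at -86 bp from a start of modSP, and the strongest for ena at -67 bp from one of CG15111. The target of mir-8, ush, was near the peak of rank 4, whose nearest coding start, at -1374 bp, is that of cbt, with signals of 545, 723 and 540 in replicates 1, 2 and 3 (603 ± 104). The ecdysone genes Eip74EF, a target of mir-34, and EcR, a target of mir-14, had 21 and 15 summits. These were counted over the whole gene and 5000 bp on each side. The strongest for EcR had as nearest coding start that of CG14589, at -2608 bp. hid, a target of bantam, had a promoter summit at -311 bp with signals of 120, 161 and 151 and rank 501. sens, a target of mir-9a, mei-P26, a target of bantam, and nerfin-1, a target of mir-279, had none, so in those pairs the miRNA had a summit within 5000 bp and its target did not.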

How the data were processed

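Lpt-GFP chromatin immunoprecipitation was measured in 3 samples. The authors deposited, for each replicate and the pool, dm6 lists of peaks and background regions with a signal, a −log10 q-value and a summit offset per region (30000, 30000 and 27893 regions for replicates 1, 2 and 3), and an IDR list of 6110 peaks derived from them, per the deposited descriptions. Which aligner, peak caller and IDR threshold were used is not given in the sources used here. The −log10 q-values were not used to rank peaks, since many are tied at a maximum.

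Summits were compared with Ensembl 115 genes of the same assembly, with Python 3.11.15, numpy 2.4.6, pandas 2.3.3 and scipy 1.17.1. Distances run from the nearest hairpin base. Starts of miRNA entries were not counted as transcription start sites, and transposable elements were left out. The position code was tested on simulated data. Mature miRNAs were matched by FlyBase identifier for 260 of 260 loci.

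No test was made, since there is 1 group and no control. Intervals are exact (Clopper-Pearson) and 95%. The miRNA loci and both gene lists were chosen with earlier results of these data known. Loci were named if among the 15 clusters with the strongest peaks, if overlapped by a peak, if among the clusters with most summits, or if on a list of well known miRNAs; the other loci and noncoding genes named were chosen after their values were seen. Alternatives varied the distance, the peak set, the clustering, the replicates and the motif window.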

Additional observations from a re-analysis of the deposited data

How the results depend on the processing

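The counts moved with the distance allowed: within 1000, 2000 and 10000 bp, 23, 38 and 128 loci and 22, 32 and 108 clusters had a summit. Leaving out each replicate in turn, with IDR peaks kept if among the strongest of the other replicates, gave 62 to 68 loci and 50 to 55 clusters. The IDR list itself still came from all 3 replicates, so these counts could only fall from the main 81 loci and 68 clusters. They do not show what a list made without a replicate would give. Using the upper 50% of peaks by signal, peaks strongest in all 3 replicates, or peak edges in place of summits gave 59 to 83 loci and 47 to 70 clusters, and other cluster gaps gave 67 and 70 clusters. All 4 overlapped hairpins lay wholly inside the peak. Of the target genes, 4 kept a summit within 1000 bp of a start site. Searched within 200 bp of the summits near miRNA loci, GAGAGAG was in 23.7%, against 16.9% of all IDR summits. Within 50 bp, AGGTCA and CAGGTAG were in 0% (which allows up to 2.70%), against 1.80 and 0.229%, and TGANTCA in 0.741%, against 2.44%, while GAGAGAG and TATCGATA were in 8.15 and 2.96%, against 4.01 and 0.344%. No paired analysis was possible because all samples belong to 1 group. With 3 replicates, no control and an unknown depth, a missing summit says only that no peak passed the threshold.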

Other observations

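Clusters were also counted by the number in their name, a split chosen after the values were seen. Among clusters with at least 1 member that is named or numbered under 1000, of which 5 also hold a member numbered 1000 and over, 15 of 47 outside coding genes (31.9%, exact 95% interval 19.1 to 47.1%) and 11 of 41 inside them (26.8%, 14.2 to 42.9%) had a summit within 5000 bp. Among clusters with all members numbered 1000 and over, these were 2 of 15 (13.3%, 1.66 to 40.5%) and 40 of 103 (38.8%, 29.4 to 48.9%). The intervals overlap, and no test was made. Near clusters inside coding genes, 59 of 91 cluster-summit pairs had the summit upstream of the hairpins, 30 downstream and 2 inside.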
